A study of Homo sapiens with 20 samples.

Results

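The genes described here were higher in *ALKBH5* knockout (A5-KO) cells than in wild-type (WT) cells at 2 separate stages of pancreatic differentiation. A gene is a member when (A5-KO mean + 1)/(WT mean + 1) was at least 1.5 and both A5-KO libraries lay above both WT libraries, in pancreatic progenitors (PPs) at 0 h and again in human islet-like organoids (hILOs), with an A5-KO mean of at least 2 at each stage. Of 60623 genes listed, 60 were members. The members were chosen by their values at 0 h and in hILOs, which are therefore described without a test. Liver, interferon, collagen, metallothionein, HOX, ZNF-named and similar symbols named in the rule were dropped, which took out 8 of the 68 genes that passed at both stages. RNA-seq was made from PPs and hILOs differentiated from the human embryonic stem cell line MEL1, which carries a GFP reporter at the insulin gene in every group. A5-KO cells had lost *ALKBH5* through CRISPR editing and colony picking, so what the editing did and what is particular to the picked line cannot be told apart. WT and A5-KO hILOs gave 2 libraries each. WT and A5-KO PPs were collected untreated (0 h) or after 1, 2 or 3 h in actinomycin D (Act D) at 1 μg/ml, with 2 libraries in each of these groups, which makes 16. The values are reads scaled to the library total (CPM) in PPs and length-scaled transcript levels (TPM) in hILOs, and the 12 Act D libraries took no part in choosing the members. The Act D libraries are still PPs of the same genotypes, and may share batches of cells with the 0 h libraries. A difference at 0 h can therefore carry over to them.

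ALKBH5 removes N6-methyladenosine (m6A), a methyl mark that proteins read to set how mRNA is spliced, exported, translated and degraded. Act D stops RNA polymerase, so that under a complete block an mRNA can only be lost. CPM is a share of each library, so under Act D a long-lived mRNA can gain CPM while short-lived mRNAs drain away. A gain in CPM is therefore not by itself a sign of new transcription. How complete the block was here was not tested. The members do not belong to one pathway: they include a BMP ligand and BMP target genes, receptors, proteins of vesicle traffic in epithelia, enzymes of liver and gut, actin and muscle proteins, and RNAs that code for no protein.

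*ALKBH5* was at 33.7 to 172 CPM in the 8 WT PP libraries and 7.43 to 19.1 CPM in the 8 A5-KO PP libraries, and at 78.8 to 81.9 against 3.42 to 4.16 TPM in hILOs. PP libraries held 30516384 to 35206514 reads, and the depth of the hILO libraries is unknown. Among 8 PP markers only *PTF1A* stayed under 1 CPM in every PP library, while hILOs expressed all 10 islet markers. Markers of several other cell types moved with the genotype, as did those of the islet, and not all of them were higher in A5-KO. At 0 h the 10 liver markers summed to 1096 to 1144 CPM in WT and 1911 to 1932 CPM in A5-KO, the 8 intestinal markers to 695 to 738 and 922 to 979 CPM, and the 10 mesenchymal markers to 120.5 to 129 and 212 to 216 CPM. In hILOs the liver markers summed to 19832 to 20186 TPM in WT and 32197 to 32484 TPM in A5-KO, the intestinal markers to 2998 to 3056 and 4105 to 4178 TPM, and the mesenchymal markers to 11.1 to 18.98 and 49.2 to 54.4 TPM. At 0 h both A5-KO libraries lay above both WT libraries for 7 liver, 5 intestinal and 7 mesenchymal markers, and below for 2, 0 and 2. In hILOs they lay above for 6, 7 and 6 and below for 3, 1 and 1. Of the 8 PP markers, 2 lay above and 2 below at 0 h, and 2 above and 6 below in hILOs. The 4 pluripotency markers summed to 121 to 124 CPM in WT and 234 to 248 CPM in A5-KO at 0 h, with 1 marker higher in A5-KO and 1 lower, and *POU5F1* and *NANOG* stayed under 1 at both stages. In hILOs the islet markers summed to 34883 to 37184 TPM in WT and 26743 to 27961 TPM in A5-KO, with 8 of 10 lower in A5-KO. The 4 stomach markers there summed to 20.8 to 21.5 TPM in WT and 15.5 to 15.6 TPM in A5-KO. The 5 neural markers there summed to 622 to 635 and 516 to 528 TPM. At 0 h the stomach sums were 3.99 to 4.43 CPM in WT and 5.04 to 5.87 CPM in A5-KO. The neural sums at 0 h were 1.32 to 1.77 and 1.93 to 3.37 CPM. *DCN*, a defining mesenchymal marker, stayed under 1 at both stages. *TWIST1* stayed under 1 CPM in PPs, and *PDGFRA*, *PDGFRB* and *PRRX1* under 1 TPM in hILOs. The 4 blood markers stayed under 1 CPM in PPs. In hILOs they summed to 89.0 to 89.9 TPM in WT and 103 to 111 TPM in A5-KO, with *PTPRC*, *CD34* and *SPI1* under 1 TPM. The part of these differences in the members' values was not tested. In bulk RNA, fewer cells of a type and less RNA per cell cannot be told apart.

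Most members differed by less than 2-fold between the genotypes at each stage. At 0 h in PPs the ratio had a median of 1.71 over the 60 members and was at least 2 in 23; in hILOs the median was 1.88 and 24 reached 2. The rule was met by 2.74% of 12575 genes with an A5-KO mean of at least 2 at 0 h and by 6.3% of 14878 such genes in hILOs. The largest ratio in PPs, 9.16, was that of the long noncoding RNA *CCDC144NL-AS1*, and the largest in hILOs, 6.54, that of *LINC01036*. At both stages 14 members reached a ratio of 2, and these were led by *URB1-AS1* (3.74 and 4.76), *AP1M2* (3.36 and 4.800) and *LCP1* (3.12 and 3.696). The ratio was larger in hILOs for 41 members and larger in PPs for 19. *ANKRD1* (smaller of both ratios 1.51), *SMLR1* (1.51) and *TNFSF15* (1.51) lay just inside the limit, and *UGT2B17* (1.498), *TMPRSS4* (1.49) and *LGALS2* (1.49) just outside it. By annotation 50 members code for protein, 9 are long noncoding RNAs and 1 is an unprocessed pseudogene.

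**Figure D1:**
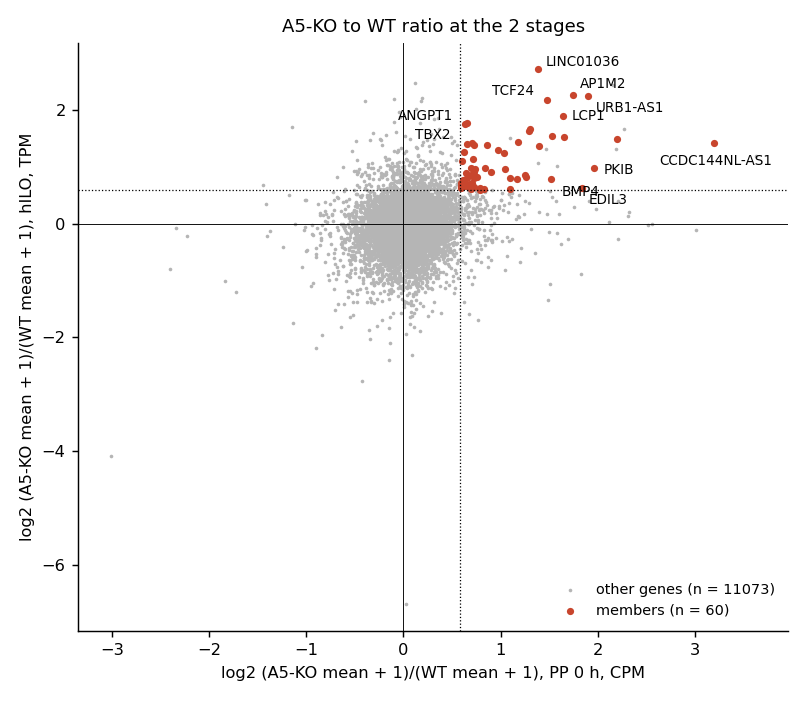
Each point is a gene with an A5-KO mean of at least 2 at both stages, placed by its log2 ratio of A5-KO to WT in PPs at 0 h (x axis, CPM + 1) and in hILOs (y axis, TPM + 1); dotted lines mark the 1.5-fold limit. The 60 members (red) fill the upper right corner by the rule, with CCDC144NL-AS1 farthest to the right and LINC01036 highest; gray points in that corner did not separate the libraries or were dropped by symbol.

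The Act D libraries asked whether the members stayed higher in A5-KO PPs during the treatment. The choice at 0 h in PPs of the same genotypes favoured a larger share of calls than over all genes. All 59 members tested had a higher fitted level in A5-KO at 1 h, 52 at 2 h and 43 at 3 h. *USP2*, a deubiquitinase gene, was the only member not tested, with a mean under 1 CPM over these libraries. For the test, log2(CPM + 1) of 13462 genes was fitted with limma, and a call required an adjusted *p* below 0.05 (Benjamini-Hochberg, over all of these genes) and a change over 1.5-fold. At 1 h, 37 of 59 members were called higher in A5-KO (62.7%), against 2.44% of all genes. At 2 h 28 were called higher (47.5%), against 2.44%, and at 3 h 14 (23.7%), against 1.08%. The limma fit called no member lower in A5-KO at 1 h (0.921% of all genes) or 2 h (2.98%), nor did edgeR or DESeq2, and at an unadjusted *p* below 0.05 the count was also 0 at both times. At 3 h 5 members were called lower (8.47%), against 17.1% of all genes. The median log2 difference over the members was 0.91 at 1 h, 0.62 at 2 h and 0.41 at 3 h, beside 0.030, -0.10 and -0.12 over all genes. With median-of-ratios scaling, quantile normalization, edgeR and DESeq2 the count called higher at 3 h was 23, 33, 24 and 25. Without the filter on low values it was 21 at 1 h, 16 at 2 h and 9 at 3 h. Of the calls, 23 of 37 at 1 h, 15 of 28 at 2 h and 9 of 14 at 3 h held whichever library was left out. The count at 1 h was 24 without WT replicate 1 or A5-KO replicate 2 of that time, and that at 2 h was 16 and 17 without A5-KO replicates 1 and 2 of that time.

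Called higher at each of the 3 times were 11 members (18.6%), against 0.416% of all genes and 11.1% of those that met the rule in PPs only: *LCP1*, *AP1M2*, *GNRH2*, *PKIB*, *EDIL3*, *RCN3*, *SYTL5*, *GBA3*, *CCDC144NL-AS1*, *LINC03061* and the pseudogene ENSG00000255860. With the same 4 alternatives the count was 19, 25, 20 and 22, and without the filter 7. At least 1 of the times gave a call for 39 members, against 3.95% of all genes. Both A5-KO libraries lay above both WT libraries for 56 members at 1 h, 44 at 2 h and 35 at 3 h, where 32.6%, 19.7% and 20.2% of all genes did so. At 3 h 11 members had both A5-KO libraries below both WT libraries, as had 45.8% of all genes. For 31 members the A5-KO libraries were the higher ones at all 3 times, beside 4.55% of all genes. Genes that met the rule in PPs but not in hILOs (252 tested) share their selection at 0 h and give the nearest comparison. Of these 36.5% were called higher at 1 h, 29.8% at 2 h and 17.1% at 3 h, and their median log2 differences were 0.60, 0.46 and 0.30; the difference between the 2 lists was not tested.

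**Figure D2:**
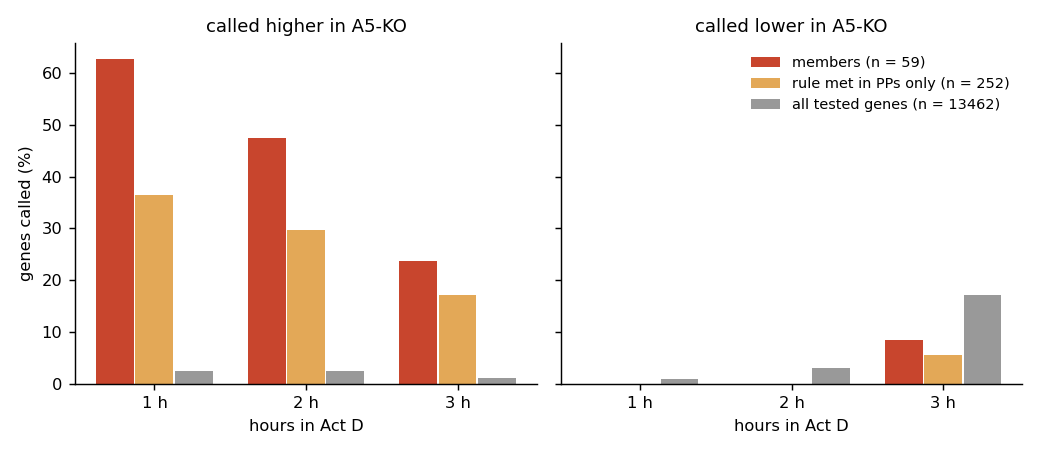
Bars give the percentage of genes called higher (left) or lower (right) in A5-KO PPs than in WT PPs at 1, 2 and 3 h in Act D (x axis), for the members, for genes that met the rule in PPs only, and for all tested genes. The red bars fall from 62.7% at 1 h to 23.7% at 3 h on the left, and on the right the gray bar at 3 h, 17.1%, is taller than that of the members, 8.47%.

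Of the 4 members of the BMP pathway, *BMP4* and *ID3* were called higher in A5-KO at 1 h and lower at 3 h, and *SMAD7* and *TBX2* were not called at any Act D time. BMP4 is a secreted ligand that signals through SMAD proteins, ID3 is an inhibitor of helix-loop-helix transcription factors and a classic BMP target, SMAD7 is the inhibitory SMAD that closes the loop, and TBX2 is a T-box repressor that BMP signals induce in embryos. At 0 h *BMP4* (chr14:53949736-53958761, GRCh38) was at 17.6 and 14.6 CPM in A5-KO against 5.97 and 3.97 in WT, and in hILOs at 27.1 and 24.4 TPM in A5-KO against 15.96 and 13.3 in WT. After 1 h in Act D it was at 7.48 and 6.25 CPM in A5-KO against 2.34 and 3.29 in WT. After 2 h it was at 2.71 and 3.57 CPM in A5-KO against 2.47 and 3.36 in WT, and after 3 h at 2.44 and 1.87 CPM in A5-KO against 3.97 and 5.31 in WT. The genotypes were apart at 1 h with A5-KO higher, overlapped at 2 h, and were apart again at 3 h with A5-KO lower. The log2 difference of *BMP4* was 1.05 (standard error 0.22, adjusted *p* = 0.014) at 1 h and -0.83 (standard error 0.22, adjusted *p* = 0.012) at 3 h. Its exons share 506 of 3096 bases with a gene on the other strand, and counting by strand is not stated.

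*ID3* (chr1:23557926-23559501) was the most abundant member per exon length in untreated A5-KO PPs, at 172 CPM per kb of exon. Its level at 0 h was 266 and 250.1 CPM in A5-KO against 181 and 158 in WT, and in hILOs 217 and 204 TPM in A5-KO against 136 and 124 in WT. Under Act D, *ID3* stood at 138 and 159 CPM in A5-KO against 80.98 and 87.3 in WT at 1 h. It stood at 66.9 and 62.3 CPM in A5-KO against 58.7 and 118 in WT at 2 h. By 3 h *ID3* held 48.8 and 45.6 CPM in A5-KO against 101 and 121 in WT. In A5-KO each later time was lower than the one before, while the WT libraries at 3 h were above those at 1 h, and the WT libraries at 2 h differed from each other more than the A5-KO libraries did. The log2 difference was 0.81 (standard error 0.22, adjusted *p* = 0.048) at 1 h and -1.21 (standard error 0.22, adjusted *p* = 0.0013) at 3 h. *SMAD7* was at 18.2 and 17.02 CPM in A5-KO against 11.5 and 11.1 in WT at 0 h and far lower at 1 h, at 1.96 and 2.63 CPM in A5-KO against 1.201 and 1.79 in WT. By 3 h it was at 1.99 and 1.58 CPM in A5-KO against 3.64 and 3.22 in WT, with both A5-KO libraries the lower ones. The log2 differences of 0.40 (adjusted *p* = 0.53) at 1 h and -0.67 (adjusted *p* = 0.15) at 3 h did not pass the test. *TBX2* was at 21.7 and 21.2 TPM in A5-KO against 5.76 and 5.66 in WT in hILOs, a ratio of 3.35 and the largest of these 4 genes there. Its log2 difference in PPs was 0.44 (adjusted *p* = 0.38) at 1 h and -0.25 (adjusted *p* = 0.54) at 3 h.

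In the wider list of BMP, TGF-beta and activin genes, 31 were tested and 3 were members (*BMP4*, *ID3* and *SMAD7*). At 1 h 3 of the 31 were called higher, against 2.44% of all genes, and 2 lower, against 0.921%. Those called higher were *ID4* and the members *BMP4* and *ID3*, which the rule had chosen for higher A5-KO levels at 0 h. At 3 h 11 were called lower, against 17.1%. At 2 h limma called none, while 5 were higher and 3 lower at an unadjusted *p* below 0.05, edgeR called none and DESeq2 called 2 higher. At 3 h limma called none higher, 3 were higher at an unadjusted *p* below 0.05, and edgeR and DESeq2 each called 2 higher. The median log2 difference of the list was 0.16 at 1 h, -0.14 at 2 h and -0.29 at 3 h, beside 0.030, -0.10 and -0.12 over all genes.

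A further 3 members were called lower at 3 h: *PPP1R3C*, which was also called higher at 1 h, and *ANKRD1* and *RGS1*, which were not. ANKRD1 is a nuclear ankyrin-repeat protein of muscle whose gene is a known YAP target, RGS1 switches off G-protein signals, and PPP1R3C brings protein phosphatase 1 to glycogen. *ANKRD1* (chr10:90912096-90921087) was at 12.6 and 15.6 CPM in A5-KO against 7.15 and 7.94 in WT at 1 h and 4.403 and 3.57 CPM in A5-KO against 7.97 and 19.2 in WT at 3 h. The WT libraries at 3 h were far from each other, yet both stood above A5-KO, and the log2 difference at 3 h was -1.44 (standard error 0.32, adjusted *p* = 0.0044). At 1 h it was 0.81 (adjusted *p* = 0.15), which did not pass. *RGS1* (chr1:192575763-192580024) went from 17.7 and 13.7 CPM in A5-KO against 9.56 and 8.18 in WT at 0 h to 2.19 and 3.51 CPM in A5-KO against 1.14 and 1.33 in WT at 1 h, far lower in both genotypes. At 3 h it was at 1.22 and 1.17 CPM in A5-KO against 3.19 and 4.297 in WT, a log2 difference of -1.10 (standard error 0.22, adjusted *p* = 0.0021). *PPP1R3C* (chr10:91628442-91633071) was at 32.3 and 30.98 TPM in A5-KO against 9.403 and 9.23 in WT in hILOs. In PPs it was at 4.401 and 3.83 CPM in A5-KO against 1.001 and 1.95 in WT at 1 h and 1.73 and 0.696 CPM in A5-KO against 2.63 and 3.51 in WT at 3 h. The log2 differences were 1.07 (standard error 0.26, adjusted *p* = 0.032) and -0.91 (standard error 0.26, adjusted *p* = 0.021). The genotypes did not overlap at either time and changed places in between. Single libraries decided some of these calls. Without WT replicate 2 at 3 h the adjusted *p* at 3 h was 0.11 for *BMP4*, 0.13 for *PPP1R3C* and 0.055 for *ANKRD1*. Without A5-KO replicate 2 at 3 h it was 0.12 for *BMP4* and 0.23 for *PPP1R3C*. The log2 difference of *ANKRD1* went from -1.44 to -0.85 without that WT library, and that of *PPP1R3C* from -0.91 to -0.56, under the fold limit, without that A5-KO library. The calls of *ID3* and *RGS1* at 3 h held without each library, and without the filter on low values only *RGS1* of the 5 was still called lower. The 1 h call of *ID3* was lost in 10 of the 12 fits that left out a library, with adjusted *p*-values of 0.053 to 0.32, that of *BMP4* in 3 (0.063 to 0.17) and that of *PPP1R3C* in 5 (0.054 to 0.30). With quantile normalization the difference of *BMP4* at 3 h was -0.57, under the fold limit.

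**Figure D3:**
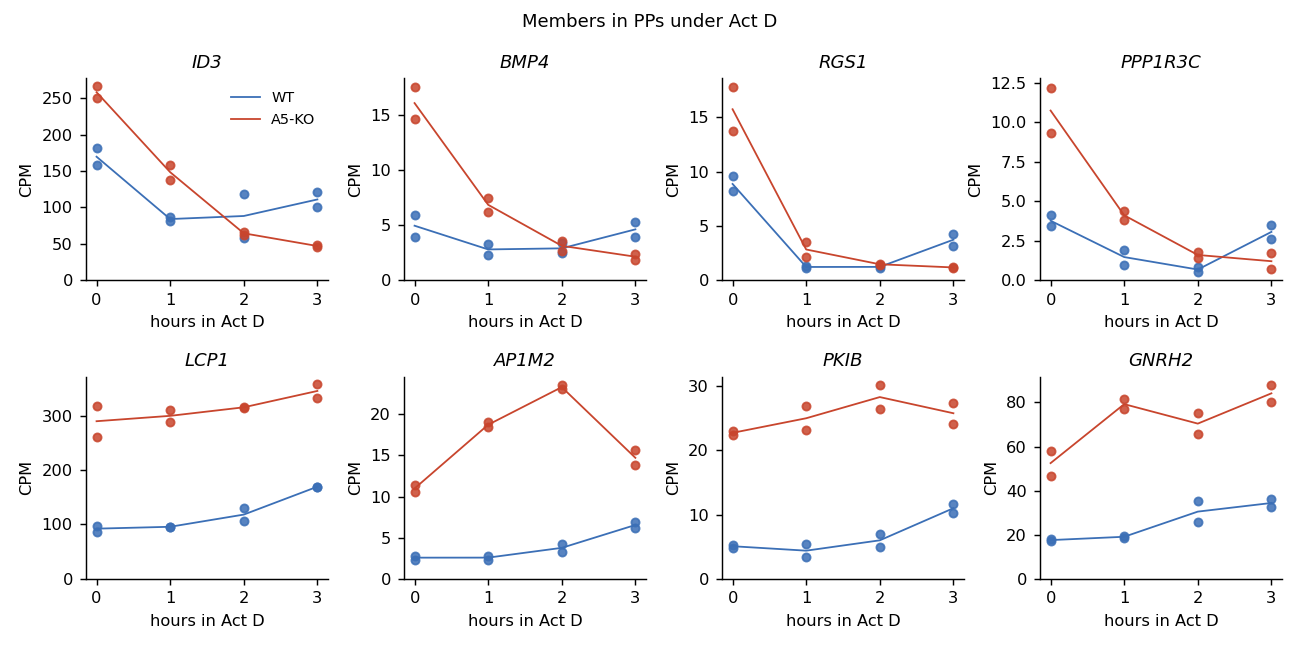
CPM (y axis, from 0) of 8 members in PPs at 0, 1, 2 and 3 h in Act D (x axis); points are libraries, lines join the means of 2, blue for WT and red for A5-KO. In the upper row (ID3, BMP4, RGS1, PPP1R3C) the red line starts higher and ends lower than the blue one, for ID3 at 48.8 and 45.6 CPM against 101 and 121 CPM; in the lower row (LCP1, AP1M2, PKIB, GNRH2) red stays above blue throughout.

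The change from 1 to 3 h was compared between the genotypes in the same limma fit. In A5-KO 9 members were called lower at 3 h than at 1 h (15.3%), close to the 14.8% of all genes: *ID3*, *ANKRD1*, *BMP4*, *PPP1R3C*, *FAM50B*, *DDIT4L*, *RGS1*, *URB1-AS1* and *MAF*. No member was called higher in A5-KO by limma (0.728% of all genes); 6 were higher at an unadjusted *p* below 0.05, and edgeR called 1 and DESeq2 2. In WT 8 members were called higher at 3 h than at 1 h (13.6%), against 0.371% of all genes: *CCDC144NL-AS1*, *PKIB*, *AP1M2*, *RGS1*, *HPGD*, *RAB27B*, *LCP1* and *GNRH2*. None was called lower there by limma, edgeR or DESeq2 (0.104% of all genes by limma), and none was lower at an unadjusted *p* below 0.05. The A5-KO minus WT difference became smaller or negative from 1 to 3 h in 22 members (37.3%), against 13.3% of all genes, and became larger in none by any of the 3 tools or at an unadjusted *p* below 0.05 (1.0% of all genes by limma). The median change of that difference was -0.70 on the log2 scale in members and -0.17 in all genes. The rule chose higher A5-KO levels at 0 h, and the median difference at 1 h was 0.91 in members beside 0.030 in all genes. All genes are therefore not a like baseline for this change. Of the 252 tested genes that met the rule in PPs only, 16 were called higher in WT at 3 h than at 1 h. The A5-KO minus WT difference became smaller or negative in 48 of these 252 genes and larger in 0, with a median change of -0.45. The members were not tested against these genes.

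RefSeq promoters (300 bases from 250 before to 50 after the RefSeq start, GRCh38.p14) were found for 44 of the 60 members. They are shown for the 5 members called lower at 3 h and, for contrast, for 2 members that stayed higher at all 3 times, *LCP1* and *GNRH2*. Capitals mark TATAAA, the letters of the TATA box, in *RGS1*, *LCP1* and *GNRH2*. They mark GGCGCC, a GC-rich SMAD motif, in *BMP4* and *PPP1R3C*. In *ANKRD1* they mark CATTCC, the TEAD motif (here on the other strand, GGAATG). Matches are exact, so TATAAG in *ANKRD1* and *ID3* stays in small letters. *ID3* held none of the 8 motifs searched and has no capitals. The RefSeq start lay inside the gene given above by 3711 bases for *BMP4* and 29694 bases for *LCP1*, and over 1000 bases from the GENCODE gene start for 10 of the 44.
ID3, chr1:23559452-23559751, minus strand: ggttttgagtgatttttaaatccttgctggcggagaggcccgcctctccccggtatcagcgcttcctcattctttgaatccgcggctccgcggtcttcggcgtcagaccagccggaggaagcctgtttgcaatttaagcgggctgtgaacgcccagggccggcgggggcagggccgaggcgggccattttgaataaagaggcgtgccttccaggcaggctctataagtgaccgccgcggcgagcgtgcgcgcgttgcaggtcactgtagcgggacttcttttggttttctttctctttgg
BMP4, chr14:53955001-53955300, minus strand: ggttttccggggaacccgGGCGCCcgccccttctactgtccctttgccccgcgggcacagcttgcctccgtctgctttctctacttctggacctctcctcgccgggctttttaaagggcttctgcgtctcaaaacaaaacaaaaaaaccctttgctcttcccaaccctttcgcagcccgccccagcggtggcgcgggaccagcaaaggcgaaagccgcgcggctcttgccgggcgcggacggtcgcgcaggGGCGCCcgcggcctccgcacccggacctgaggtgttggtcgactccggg
PPP1R3C, chr10:91633022-91633321, minus strand: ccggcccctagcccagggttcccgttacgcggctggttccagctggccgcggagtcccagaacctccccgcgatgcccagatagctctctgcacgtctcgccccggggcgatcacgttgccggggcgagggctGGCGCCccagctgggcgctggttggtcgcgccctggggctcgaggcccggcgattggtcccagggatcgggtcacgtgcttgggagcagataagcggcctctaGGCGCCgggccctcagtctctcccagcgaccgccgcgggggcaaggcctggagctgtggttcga
RGS1, chr1:192575523-192575822, plus strand: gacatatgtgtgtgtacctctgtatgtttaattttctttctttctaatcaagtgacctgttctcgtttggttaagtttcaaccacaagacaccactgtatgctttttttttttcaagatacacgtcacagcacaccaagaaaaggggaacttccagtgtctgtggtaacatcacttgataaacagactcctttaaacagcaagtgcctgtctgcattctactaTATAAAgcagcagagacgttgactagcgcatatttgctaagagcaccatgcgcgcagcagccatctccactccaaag
ANKRD1, chr10:90921038-90921337, minus strand: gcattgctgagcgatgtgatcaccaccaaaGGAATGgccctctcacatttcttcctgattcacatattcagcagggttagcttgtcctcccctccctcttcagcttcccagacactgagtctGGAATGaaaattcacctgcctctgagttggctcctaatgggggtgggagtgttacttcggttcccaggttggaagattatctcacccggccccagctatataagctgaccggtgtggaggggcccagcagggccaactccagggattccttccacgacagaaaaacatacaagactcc
LCP1, chr13:46182128-46182427, minus strand: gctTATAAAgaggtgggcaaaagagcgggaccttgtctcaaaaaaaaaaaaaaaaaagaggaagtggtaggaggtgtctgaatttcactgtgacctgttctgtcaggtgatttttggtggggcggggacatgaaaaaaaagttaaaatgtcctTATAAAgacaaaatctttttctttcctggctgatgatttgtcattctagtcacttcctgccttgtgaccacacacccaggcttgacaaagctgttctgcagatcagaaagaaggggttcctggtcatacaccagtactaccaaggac
GNRH2, chr20:3043372-3043671, plus strand: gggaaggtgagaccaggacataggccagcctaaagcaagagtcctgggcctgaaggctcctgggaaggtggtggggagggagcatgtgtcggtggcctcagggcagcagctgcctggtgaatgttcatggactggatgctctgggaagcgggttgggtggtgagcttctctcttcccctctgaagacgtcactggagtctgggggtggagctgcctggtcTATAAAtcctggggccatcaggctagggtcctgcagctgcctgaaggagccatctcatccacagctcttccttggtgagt

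The 44 promoters had a median of 16.5 CpG per 300 bases, beside 26 in the promoters of 10262 tested genes. TATAAA on either strand was present in 8 of 44 (18.2%), beside 12.0% of all 27305 promoters in the table and 5.58% of those of tested genes. GGCGCC was present in 11 (25%; 18.97% and 30.9%) and CATTCC in 7 (15.9%; 14.0% and 10.8%). GGGCGG, the GC box, was present in 21 (47.7%; 44.6% and 70.2%). The AP-1 motif TGAGTCA was present in 3, the cyclic AMP motif TGACGTCA in 1, the HNF4 motif CAAAGTCCA in 1 (*SMLR1*) and the SMAD palindrome GTCTAGAC in none, beside 4.92%, 1.98%, 0.359% and 0.201% of all promoters. The TATAAA of *RGS1* began at -27 and that of *GNRH2* at -30 from the RefSeq start, whereas those of *LCP1* began at -247 and -97. The motifs were chosen after the members' values were seen, and a match is a description of these letters only.

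GGACT, the commonest form of the m6A consensus, was counted in the Ensembl canonical transcript of each gene. It was present in 51 of 59 members tested (86.4%), beside 89.5% of 13445 tested genes with such a transcript, at a median of 0.88 and 0.92 per kb. *ID3* held 3 in 950 bases and *BMP4* 6 in 1931 bases, or 3.16 and 3.11 per kb, while *ANKRD1* and *RGS1* each held 1. The members' transcripts had a median length of 2451 bases, beside 3231. TATTTAT, the core of an AU-rich element that marks many short-lived mRNAs, was present in the 3′ UTR of 18 of 49 coding members (36.7%), beside 36.6% of 12109 coding genes tested. It was present in *BMP4* and *ANKRD1* among the 5 members called lower at 3 h, and in 1 of 8 coding members called higher at all 3 times. Whether any of these sites carried m6A was not analysed here.

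Proteins of membrane traffic made up 5 members. This and the other role groups were drawn up after the values were seen. AP1M2 is the epithelial subunit of a clathrin adaptor that sorts cargo to the basolateral side, RAB27B is a small GTPase that docks secretory vesicles, SYTL5 binds Rab27 proteins, and MAL2 and PLLP are membrane proteins of polarised cells. All 5 were called higher at 1 h and at 2 h, and *AP1M2* and *SYTL5* also at 3 h. Of all members tested 62.7%, 47.5% and 23.7% were called higher at these times, and of all genes 2.44%, 2.44% and 1.08%. *AP1M2* (chr19:10572671-10587315) was at 10.5 and 11.5 CPM in A5-KO against 2.81 and 2.32 in WT at 0 h. The hILO libraries stood at 12.7 and 9.77 TPM in A5-KO against 1.59 and 1.51 in WT. At 1 h it was at 18.4 and 19.05 CPM in A5-KO against 2.32 and 2.83 in WT. At 2 h it was at 23.5 and 23.1 CPM in A5-KO against 3.31 and 4.22 in WT and finally, at 3 h, at 15.6 and 13.8 CPM in A5-KO against 6.86 and 6.22 in WT. A5-KO stood above WT at every time, with a log2 difference of 2.47 (standard error 0.16, adjusted *p* = 1.6e-06) at 1 h and 1.06 (standard error 0.16, adjusted *p* = 0.00043) at 3 h. The WT level was called higher at 3 h than at 1 h (1.08, adjusted *p* = 0.0059). *RAB27B* (chr18:54717860-54895516) was at 30.3 and 27.4 CPM in A5-KO against 13.3 and 11.1 in WT at 0 h. In hILOs it stood at 43.2 and 38.7 TPM in A5-KO against 15.9 and 13.3 in WT. Under Act D its A5-KO libraries stayed between 19.95 and 25.1 CPM, while WT moved from 9.46 and 7.64 at 1 h to 14.3 and 17.8 CPM at 3 h. The difference was 1.31 (adjusted *p* = 0.00019) at 1 h and 0.37 (adjusted *p* = 0.086) at 3 h. For *SYTL5* the log2 difference was 1.36 (adjusted *p* = 0.00088), 1.09 (adjusted *p* = 0.0043) and 0.65 (adjusted *p* = 0.022) at 1, 2 and 3 h. Without WT replicate 1 at 3 h the last was 0.34 (adjusted *p* = 0.20). *MAL2* had the highest hILO level of the group, 327 and 332 TPM in A5-KO against 135 and 140.4 in WT. In PPs at 2 h it was at 43.5 and 49.4 CPM in A5-KO against 14.9 and 15.4 in WT, its widest gap there, with a log2 difference of 1.55 (standard error 0.12, adjusted *p* = 5.3e-06). *PLLP* shares 1733 of 8705 exon bases with *ARL2BP* on the other strand, so its differences of 1.28 (adjusted *p* = 0.00064) at 1 h and 0.87 (adjusted *p* = 0.0097) at 2 h may hold reads of both genes.

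Enzymes and surface proteins of liver and gut made up 11 members. Of these 8 were called higher at 1 h, 5 at 2 h and 3 at 3 h. Over all members tested 62.7%, 47.5% and 23.7% were called higher, and over all genes 2.44%, 2.44% and 1.08%. *PPP1R3C*, given above, is the one called lower at 3 h, where 17.1% of all genes were. The higher sums of liver and intestinal markers in A5-KO at both stages stand beside these values, and their part in them was not tested. *BCHE*, butyrylcholinesterase, was at 28.3 and 31.1 TPM in A5-KO against 11.01 and 12.1 in WT in hILOs and differed by 0.85 (adjusted *p* = 0.0023) at 1 h, 1.01 (adjusted *p* = 0.00058) at 2 h and 0.53 (adjusted *p* = 0.012) at 3 h. *GBA3*, a cytosolic beta-glucosidase, and *HPGD*, which inactivates prostaglandins, differed most at 2 h. *GBA3* went from 2.94 and 2.84 CPM in A5-KO against 1.38 and 1.46 in WT at 0 h to 5.55 and 6.49 CPM in A5-KO against 1.12 and 0.921 in WT at 2 h, a log2 difference of 1.79 (standard error 0.19, adjusted *p* = 6.6e-05). *HPGD* went from 9.36 and 8.46 CPM in A5-KO against 4.99 and 4.96 in WT to 19.2 and 15.96 CPM in A5-KO against 5.49 and 4.81 in WT over the same span, a difference of 1.59 (standard error 0.19, adjusted *p* = 0.00017). For both genes both A5-KO libraries at 2 h stood above both at 0 h. The 3 h call of *GBA3* was lost in 4 of the fits that left out a library. *ASGR2*, a subunit of the asialoglycoprotein receptor of hepatocytes, differed by 0.94 (adjusted *p* = 0.025) at 1 h and 0.74 (adjusted *p* = 0.023) at 3 h, and both calls were lost in 3 of the fits that left out a library. *METTL7B*, a membrane-bound methyltransferase, was called at 1 h (0.87, adjusted *p* = 0.012) and at 2 h (0.62, adjusted *p* = 0.048), the latter lost in 10 of those fits and with a replicate block. *SLC46A3*, a lysosomal transporter, was called at 1 h (0.87, adjusted *p* = 0.02) and at 2 h (1.12, adjusted *p* = 0.0039). *ITLN1*, the lectin intelectin-1, had a ratio of 3.102 in hILOs, at 407 and 399 TPM in A5-KO against 135 and 124 in WT. It was low in PPs, at 2.97 and 2.58 CPM in A5-KO against 0.373 and 0.713 in WT at 0 h, and no Act D time gave a call (the largest was 0.78, adjusted *p* = 0.059, at 1 h). *GK*, glycerol kinase, was at 19.5 and 17.1 CPM in A5-KO against 9.27 and 10.4 in WT at 0 h. The hILO level was 88.7 and 86.5 TPM in A5-KO against 62.9 and 25.1 in WT, where the 2 WT libraries were far apart. Its Act D differences, 0.47 (adjusted *p* = 0.066), 0.56 (adjusted *p* = 0.026) and 0.45 (adjusted *p* = 0.027), were all under the fold limit. *ADH1C*, an alcohol dehydrogenase, gave no call, with 0.63 (adjusted *p* = 0.27) at 1 h. Of the 37 liver metabolism and transport genes tested, 9 were called higher at 1 h, 6 at 2 h and 5 at 3 h. Of all genes 2.44%, 2.44% and 1.08% were called higher at these times. On the list 2 were called lower at 3 h, where 17.1% of all genes were. *ASGR2* and *ADH1C* belong to the list. The counts at 1 and 3 h include members, such as *ASGR2*, that the rule had chosen for higher A5-KO levels at 0 h.

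Actin, muscle and matrix genes included the member with the largest difference relative to its standard error. LCP1 (L-plastin) bundles actin, TNNC1 is the calcium-binding troponin of slow and heart muscle, MYOM1 belongs to the sarcomere, and EDIL3 is a secreted protein that binds integrins. *LCP1* (chr13:46125920-46211871) was at 319 and 261 CPM in A5-KO against 97.9 and 86.7 in WT at 0 h and at 9.51 and 9.82 TPM in A5-KO against 2.03 and 1.74 in WT in hILOs. At 1, 2 and 3 h its A5-KO libraries held 311 and 289, 315 and 317 and 358 and 333 CPM, and its WT libraries 96.2 and 95.3, 107 and 129.7 and 169 and 169.8 CPM. The log2 difference was 1.64 (standard error 0.0895, adjusted *p* = 6e-07) at 1 h and 1.02 (standard error 0.0895, adjusted *p* = 2.8e-05) at 3 h. The WT level at 3 h was called above that at 1 h (0.82, adjusted *p* = 0.0012). *LCP1* shares 965 of 5076 exon bases with the antisense gene *CPB2-AS1*. *EDIL3* was at 9.06 and 8.84 CPM in A5-KO against 1.69 and 1.89 in WT at 0 h, and its differences under Act D were 1.43 (adjusted *p* = 0.00064), 1.43 (adjusted *p* = 0.00058) and 1.01 (adjusted *p* = 0.002). *TNNC1* was called at 1 h (0.91, adjusted *p* = 0.018) and 2 h (1.04, adjusted *p* = 0.0076); it was at 199.8 and 206 TPM in A5-KO against 112 and 112 in WT in hILOs. *MYOM1* gave no call, with 0.29 (adjusted *p* = 0.59) at 1 h. The higher sums of mesenchymal markers in A5-KO stand beside these genes, and their part was not tested.

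Receptors, ligands and signal regulators numbered 11 beside the BMP genes, with 6 called higher at 1 h, 4 at 2 h and 2 at 3 h. The shares called higher were 62.7%, 47.5% and 23.7% of all members tested and 2.44%, 2.44% and 1.08% of all genes. The lasting pair was *PKIB*, an inhibitor of protein kinase A, and *GNRH2*, which encodes a gonadotropin-releasing hormone. *PKIB* (chr6:122471917-122726373) was at 23.02 and 22.4 CPM in A5-KO against 5.31 and 4.83 in WT at 0 h. In hILOs the libraries held 42.5 and 41.1 TPM in A5-KO against 22.3 and 19.3 in WT. At 1 h it was at 23.1 and 26.9 CPM in A5-KO against 5.38 and 3.38 in WT. At 3 h it was at 27.4 and 24.1 CPM in A5-KO against 10.3 and 11.7 in WT, with WT called higher at 3 h than at 1 h (1.18, adjusted *p* = 0.013) and A5-KO not called (0.044, adjusted *p* = 0.9). The difference was 2.29 (standard error 0.20, adjusted *p* = 1e-05) and 1.16 (standard error 0.20, adjusted *p* = 0.00086). *GNRH2* (chr20:3043622-3045747) was at 46.8 and 58.1 CPM in A5-KO against 17.3 and 17.8 in WT at 0 h. Its hILO libraries were low, at 4.197 and 2.23 TPM in A5-KO against 0.357 and 0.547 in WT. At 1 h it was at 76.9 and 81.5 CPM in A5-KO against 19.4 and 18.7 in WT and, 2 h later, at 88.1 and 80.2 CPM in A5-KO against 36.1 and 32.7 in WT. Its differences were 2.00 (standard error 0.13, adjusted *p* = 1.6e-06) and 1.27 (standard error 0.13, adjusted *p* = 5.9e-05). Every A5-KO library stood above every WT library at each time. *HHLA2*, a B7 family ligand of T cells, had its widest gap at 2 h, 9.08 and 10.9 CPM in A5-KO against 1.54 and 1.25 in WT, with a difference of 2.199 (standard error 0.23, adjusted *p* = 5.5e-05) there and 0.36 (adjusted *p* = 0.26) at 3 h. *LTBR*, the lymphotoxin beta receptor, was called at 1 h (0.72, adjusted *p* = 0.048) and 2 h (0.83, adjusted *p* = 0.023), and *SUCNR1*, the succinate receptor (1.19, adjusted *p* = 0.012), and *TNFSF15*, a TNF family ligand (0.84, adjusted *p* = 0.041), at 1 h alone. The 1 h calls of *LTBR* and *TNFSF15* were each lost in 8 of the 12 fits that left out a library and with a replicate block. *GHR*, the growth hormone receptor, was over the fold limit at 1 h without passing the test (0.59, adjusted *p* = 0.051). *EDNRA*, an endothelin receptor, *EFNA5*, an ephrin, and *ANGPT1*, an angiopoietin, gave no call, with 0.41 (adjusted *p* = 0.18), 0.82 (adjusted *p* = 0.086) and 0.015 (adjusted *p* = 0.98) at 1 h. *ANGPT1* differed most between the stages in this group, with a ratio of 1.57 in PPs and 3.39 in hILOs.

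Beside *TBX2* and *ID3*, 3 members encode transcription factors: *TCF24*, a basic helix-loop-helix factor, *MAF*, a basic leucine zipper factor, and *NR3C1*, the glucocorticoid receptor. *TCF24* was at 36.1 and 33.1 CPM in A5-KO against 12.4 and 11.2 in WT at 0 h. Its hILO libraries were at 9.64 and 9.93 TPM in A5-KO against 1.31 and 1.48 in WT. It was called higher at 1 h (1.31, standard error 0.19, adjusted *p* = 0.00097) and 2 h (0.88, standard error 0.19, adjusted *p* = 0.014). *MAF* was at 32.9 and 30.5 CPM in A5-KO against 22.4 and 17.5 in WT at 0 h and gave no call at any time. Its difference went from 0.57 (adjusted *p* = 0.17) at 1 h to -0.61 (adjusted *p* = 0.063) at 3 h, and the A5-KO level was called lower at 3 h than at 1 h (-0.71, adjusted *p* = 0.038). *NR3C1*, at 50.3 and 58.6 TPM in A5-KO against 28.4 and 28.6 in WT in hILOs and 5.22 and 4.63 CPM in A5-KO against 2.64 and 2.54 in WT in PPs at 0 h, gave no call either (0.31, adjusted *p* = 0.57, at 1 h).

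Of the 10 members that code for no protein, 7 were called higher at 1 h, 6 at 2 h and 4 at 3 h. Among all members tested the shares were 62.7%, 47.5% and 23.7%, and among all genes 2.44%, 2.44% and 1.08%. *CCDC144NL-AS1* (chr17:20868433-21002276) was at 41.9 and 31.7 CPM in A5-KO against 3.65 and 2.603 in WT at 0 h. The hILO libraries stood at 5.33 and 14.3 TPM in A5-KO against 3.54 and 2.62 in WT, where the A5-KO libraries were far apart. At 1 h it was at 34.1 and 29.7 CPM in A5-KO against 2.17 and 3.45 in WT, and at 3 h at 27.8 and 21.9 CPM in A5-KO against 10.7 and 8.34 in WT. The difference, 3.13 (standard error 0.21, adjusted *p* = 1.6e-06) at 1 h and 1.297 (standard error 0.21, adjusted *p* = 0.00059) at 3 h, became smaller, and the WT level was called higher at 3 h than at 1 h (1.48, adjusted *p* = 0.0044). The pseudogene ENSG00000255860 (chr11:72172455-72177954) was near 0 in untreated WT PPs and not in A5-KO, at 5.32 and 4.16 CPM in A5-KO against 0.258 and 0.248 in WT. It was at 6.99 and 5.53 CPM in A5-KO against 0.895 and 1.295 in WT at 3 h, and had the largest difference of any member at that time, 1.79 (standard error 0.20, adjusted *p* = 8.3e-05). Being an unprocessed pseudogene, it may share reads with its parent gene. *URB1-AS1*, antisense to the ribosome biogenesis gene *URB1*, was at 3.49 and 2.64 CPM in A5-KO against 0.144 and 0.0310 in WT at 0 h. In hILOs it stood at 6.36 and 7.01 TPM in A5-KO against 0.854 and 0.375 in WT. *URB1-AS1* was called at 1 h (1.98, adjusted *p* = 0.00048) and 2 h (1.68, adjusted *p* = 0.0017). *LINC01036* was at 49.5 and 34.6 TPM in A5-KO against 3.69 and 7.47 in WT in hILOs and 14.5 and 13.7 CPM in A5-KO against 4.94 and 4.59 in WT in PPs at 0 h; it was called at 1 h (1.04, adjusted *p* = 0.0028) and 2 h (1.26, adjusted *p* = 0.00056). *PCAT14*, at 81.2 and 70.1 CPM in A5-KO against 34.4 and 31.6 in WT at 0 h, was called at the same times (1.17, adjusted *p* = 2.9e-05, and 0.61, adjusted *p* = 0.0061). *LINC03061* was called at all 3 times, *LINC02593* at 1 h only, and ENSG00000257270, of which 303 of 445 exon bases lie over *MTA1*, at 3 h only. The 3 h calls of *LINC03061* and ENSG00000257270 were lost in 3 and 9 of the fits that left out a library, the latter also with a replicate block. *LINC02535* and *LINC02506* gave no call.

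The remaining 11 coding members, with no shared role, had 5 calls at 1 h, 4 at 2 h and 1 at 3 h over the 10 tested. These calls were of higher levels, made for 62.7%, 47.5% and 23.7% of all members tested and 2.44%, 2.44% and 1.08% of all genes. *FAM50B*, an imprinted gene expressed from the paternal copy, was at 9.395 and 9.34 CPM in A5-KO against 2.93 and 1.67 in WT at 0 h. The hILO level was 9.200 and 9.898 TPM in A5-KO against 2.297 and 3.04 in WT. It was at 5.93 and 6.25 CPM in A5-KO against 0.915 and 1.82 in WT at 1 h and 2.67 and 2.78 CPM in A5-KO against 3.37 and 2.53 in WT at 3 h. The difference of 1.61 (standard error 0.22, adjusted *p* = 0.00064) at 1 h was -0.076 (adjusted *p* = 0.83) at 3 h. It was the only member among 29 imprinted genes tested, of which 1 was called higher and 3 lower at 1 h, where 2.44% and 0.921% of all genes were. The 1 called higher was *FAM50B* itself, which the rule had chosen for higher A5-KO levels at 0 h. *TTC22* was at 17.8 and 16.8 TPM in A5-KO against 6.37 and 5.88 in WT in hILOs and called in PPs at 1 h (1.92, adjusted *p* = 0.018) and 2 h (1.68, adjusted *p* = 0.029). *DDIT4L*, an inhibitor of mTOR signalling, was called at the same times (1.13, adjusted *p* = 0.0011, and 0.84, adjusted *p* = 0.0082), and its A5-KO level was called lower at 3 h than at 1 h (-0.81, adjusted *p* = 0.0037). *RCN3*, a calcium-binding protein of the endoplasmic reticulum, was called at all 3 times, with 0.73 (adjusted *p* = 0.0044) at 3 h. Its 2 h call was lost in 3 of the fits that left out a library. *SAMD11* was called at 1 h (0.99, adjusted *p* = 0.023) and *MACC1* at 2 h (1.09, adjusted *p* = 0.038), while *HECW2*, *SCN7A*, *CCDC78* and *SMLR1* gave no call. The 1 h calls of *TTC22* and *SAMD11* were lost in 4 of the fits that left out a library, and the call of *MACC1* in 7. *USP2* was at 4.79 and 4.63 CPM in A5-KO against 3.01 and 1.89 in WT at 0 h and 0.483 and 0.443 CPM in A5-KO against 1.04 and 1.45 in WT at 3 h, with 1142 of 4523 exon bases over *USP2-AS1*.

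**Figure D4:**
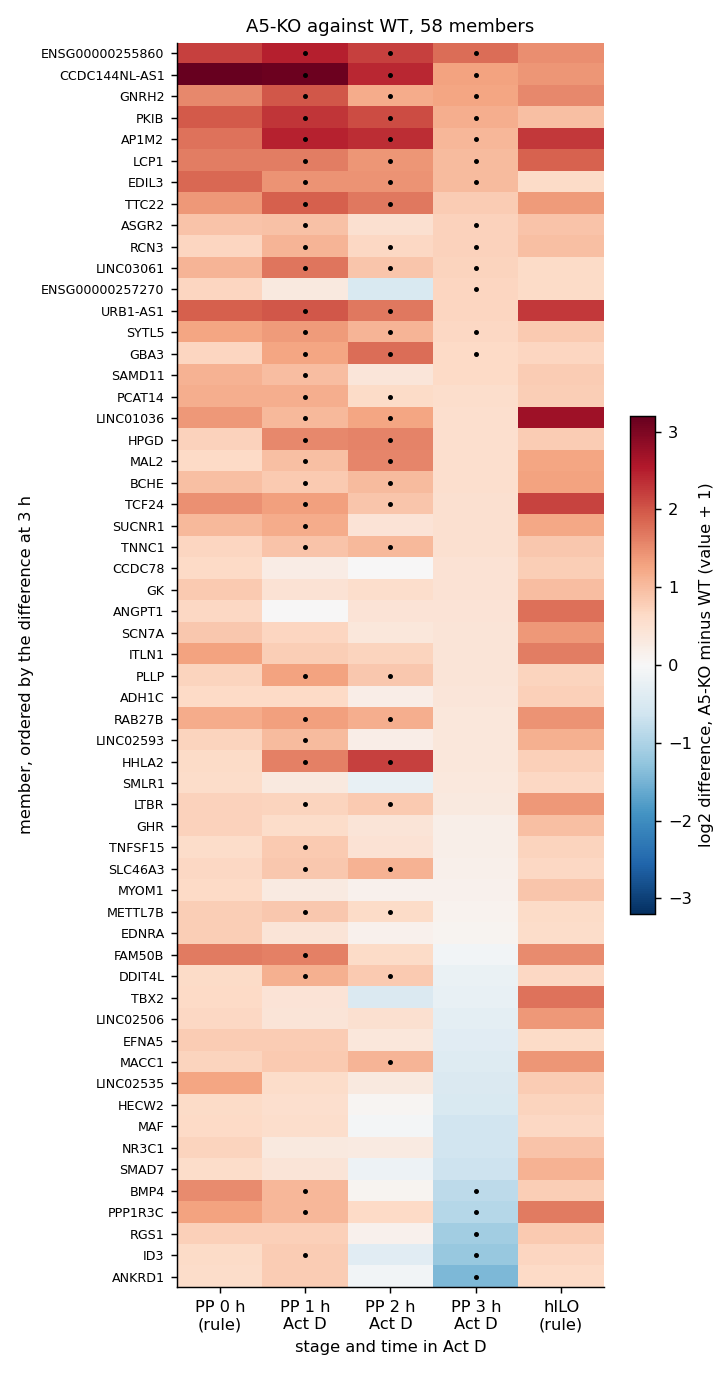
Color gives the A5-KO minus WT log2 difference (value + 1) of 58 members (rows, ordered by the difference at 3 h) in PPs at 0 h, 1, 2 and 3 h in Act D and in hILOs (columns); black dots mark calls, which were made only at the Act D times. The rule fixed the red of the first and last columns, the 1 h column is above 0 in all rows (near white for ANGPT1), and the last rows of the 3 h column (BMP4, PPP1R3C, RGS1, ID3 and ANKRD1) are blue with dots.

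The members lay on 22 chromosomes, with at most 7 on one. Within 1 Mb of each other were *LINC02593* and *SAMD11* on chromosome 1, 2907 bases apart on opposite strands, *ANKRD1* and *PPP1R3C* on chromosome 10, 707355 bases apart, and *ADH1C* and *DDIT4L* on chromosome 4, 833124 bases apart. Exon bases shared with another gene were found in 22 members. Of the 38 without any, 23 were called higher at 1 h, beside 37 of all 59 members tested and 2.44% of all genes.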

How the data were processed

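RNA-seq libraries came from PPs (16) and hILOs (4), with 2 per group, grouped by the labels. Reads were trimmed with fastp and aligned to hg38 (GRCh38) with HISAT2 2.1.0, per the submitters' processing notes. For hILOs the authors deposited TPM, made with StringTie per the study's methods and summed over the transcripts of each gene. For PPs the authors deposited CPM per gene, scaled to the library total after the ERCC spike-ins had been removed, so that these values carry no absolute amount of RNA. The read counter and its strand setting are not given in the sources used here. Gene names, biotypes, exons and coordinates were taken from GENCODE v44 on GRCh38, by Ensembl ID, for 60369 of the 60623 IDs.

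CPM steps gave back whole reads for 100% of values in each library, rounded to 1 decimal (tolerance 0.1 read), at 30516384 to 35206514 reads per library; these served edgeR 4.0.16 and DESeq2 1.42.0 as alternatives. TPM keeps no depth. For the main test log2(CPM + 1) of the 12 Act D libraries was fitted in limma 3.58.1 (R 4.3.3) with 1 mean per genotype and time, leaving out genes whose mean was under 1 CPM, and *p* was adjusted over the 13462 genes kept by the Benjamini-Hochberg method. Differences are on the log2(CPM + 1) scale, which understates those of low genes. With 2 libraries against 2, an exact two-sided permutation test cannot go below 0.33, so none was used. The labels give separate samples without saying that they came from separate cultures, so *p*-values measure the spread between these libraries.

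The members and the gene lists were chosen with earlier results of these data known, and the role groups and motifs after the values were seen. Members were named by (a) the 15 largest ratios, taking the smaller of both stages, (b) the 10 highest A5-KO means, (c) membership of a list with an A5-KO mean of at least 10 at both stages, (d) the 5 largest and 5 smallest average differences and changes from 1 to 3 h in A5-KO, and (e) the 3 genes on either side of the limit; the other members are given under their role and 1 member is not reported here on its own. Alternatives were a pseudocount of 0.1, no filter or a mean of 5 CPM, median-of-ratios and quantile scaling, edgeR, DESeq2, each time alone, a replicate block, no fold limit and each library left out.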

Additional observations from a re-analysis of the deposited data

Results flagged for a closer look

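In 22 members the A5-KO minus WT difference itself changed between 1 and 3 h in Act D, by the test of that change in the limma fit (adjusted *p* below 0.05, a change over 1.5-fold). Every one of these 22 changes was towards a smaller or a negative difference. The rule chose higher A5-KO levels at 0 h. The median difference at 1 h was 0.91 over the members and 0.030 over all genes. Genes in general are therefore not a like baseline for changes in that direction. Of the 252 tested genes that met the rule in PPs only, 48 were called in that direction and 0 in the other, with a median change of -0.45. The members were not tested against those genes. Over all genes 1792 (13.3%) were called in that direction and 135 (1.0%) in the other, and the median change was -0.17; values are in log2 units.

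The 5 members called lower at 3 h were among these 22 members: *ANKRD1* (-2.25), *ID3* (-2.02), *PPP1R3C* (-1.98), *BMP4* (-1.88) and *RGS1* (-1.86). A further 5 had a negative fitted difference at 3 h that was not called: *FAM50B* (-1.68), *DDIT4L* (-1.35), *MAF* (-1.18), *EFNA5* (-1.18) and *HECW2* (-1.01). In the rest the A5-KO level was still the higher one at 3 h in the fit: *CCDC144NL-AS1* (-1.83), *AP1M2* (-1.41), *URB1-AS1* (-1.29), *HHLA2* (-1.26), *PKIB* (-1.14), *LINC03061* (-0.999), *HPGD* (-0.994), *RAB27B* (-0.939), *PLLP* (-0.873), *GNRH2* (-0.733), *PCAT14* (-0.615) and *LCP1* (-0.613). Of the 22 calls, 9 held whichever library was left out. The lowest count was 9, without A5-KO replicate 2 at 3 h. The cause was not tested.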

How the results depend on the processing

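At 1 h edgeR called 39 members higher and DESeq2 41, beside 37 by limma. Without the filter on low values, which raised the number of genes adjusted for, the counts of members called higher were 21 at 1 h, 16 at 2 h, 9 at 3 h and 7 at all 3 times, WT higher at 3 h than at 1 h 2, A5-KO lower 2, and a genotype difference in that change 2. A filter at a mean of 5 CPM gave 24 at 1 h and 4 lower in A5-KO, and fitting each time alone gave 16 at 2 h. At 3 h and at all 3 times, median-of-ratios scaling gave 23 and 19, quantile normalization 33 and 25, edgeR 24 and 20, and DESeq2 25 and 22; with no fold limit 17 were called at all 3 times. Members called higher in A5-KO at 3 h than at 1 h, 0 in the limma fit, numbered 2, 5, 1 and 2 with those 4 settings and 1 with no fold limit. DESeq2 called 16 higher in WT, and quantile normalization gave 5 lower in A5-KO and 13 for the genotype difference in the change. The median difference at 1 h was 1.18 with a pseudocount of 0.1 and 1.14 with edgeR and with DESeq2; at 3 h it was 0.67 with quantile normalization, 0.65 with edgeR and 0.68 with DESeq2. The rule gave 14 members at a fold limit of 2, 92 with a pseudocount of 0.1 and 21 with an A5-KO mean of at least 10. With median-of-ratios scaling it gave 63, of which 53 were also members by the deposited values. The cause of the moves between tools was not tested.

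With 1 library left out, the counts ranged from 24 to 42 at 1 h, 16 to 28 at 2 h, 10 to 18 at 3 h and 9 to 14 at all 3 times, from 2 to 13 for WT higher, 4 to 12 for A5-KO lower, 9 to 26 for the genotype difference in the change, and 52 to 72 members; WT lower and A5-KO higher stayed at 0. The medians ranged from 0.85 to 1.00, from 0.51 to 0.75 and from 0.22 to 0.51 at 1, 2 and 3 h. WT higher was 2 without WT replicate 1 or 2 at 1 h, A5-KO lower was 4 without A5-KO replicate 2 at 3 h, and the median of 0.22 was that without WT replicate 1 at 3 h. Averaged over the 3 times, the difference of *MAF* changed sign with median-of-ratios scaling (0.023) and with edgeR (0.021). With 1 library left out it ranged from -0.14 to 0.065 for *MAF*, -0.15 to 0.019 for *RGS1*, -0.25 to 0.063 for *TBX2* and -0.37 to 0.084 for *SMAD7*.

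With a replicate block the counts were 35, 27, 13 and 11 at 1, 2, 3 and all 3 times, 6 for WT higher, 8 for A5-KO lower and 20 for the genotype difference in the change. The deviations of same-numbered A5-KO and WT libraries correlated at -0.014, -0.061 and -0.015 at 1, 2 and 3 h. Over all 15 pairs of groups the correlation ranged from -0.203 to 0.162, the highest being that of WT at 1 and 2 h, and A5-KO at 1 and 3 h correlated at 0.0266 and WT at 0.00464. The study's reporting says that wells of a biological replicate shared a batch of cells, but not that the library numbers mark such batches, so pairing was not assumed. Among differences between the genotypes the block ended the calls of *LTBR* and *TNFSF15* at 1 h, *METTL7B* at 2 h and ENSG00000257270 at 3 h, and those of *EFNA5* and *LINC03061* for the genotype difference in the change.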
